A study of Mus musculus with 20 samples.

Results

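The genes described here are 9 matrix metalloproteinases: Mmp2, Mmp3, Mmp9, Mmp10, Mmp11, Mmp12, Mmp13, Mmp14, and Mmp19. They were taken by gene symbol, and the array carried 11 probes for them among 55681 noncontrol probes, together with probes for 14 other Mmp genes. Single-color arrays measured RNA from snap-frozen diaphragms of 20 female C57Bl/6 mice, 4 in each of 5 groups and 1 array per mouse. The mice were injected into the pleural cavity at 8 weeks of age, and the tissue was taken 12 weeks later. The control group received the vehicle, saline with bovine serum albumin, SFA received short and LFA received long amosite asbestos fibers at 25 μg per mouse, and NTS received short and NTL received long carbon nanotubes at 5 μg per mouse. The asbestos and nanotube doses therefore differed in mass. The LFA sample was a mixed-length preparation enriched for long fibers, each fiber was 1 preparation, and all 12 skeletal muscle markers were well above background on all 20 arrays.

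Matrix metalloproteinases are zinc-dependent endopeptidases that cleave collagens, elastin, proteoglycans, and many cell surface and signaling proteins. They are made as inactive precursors, are activated by other proteases or by each other, and are held in check by the tissue inhibitors of metalloproteinases (TIMPs). Many of the secreted members lie side by side on mouse chromosome 9, whereas the gelatinases, the membrane-type enzymes, and Mmp11 and Mmp19 lie elsewhere. In inflamed serosal tissue they are known as products of macrophages, neutrophils, fibroblasts, and mesothelial cells.

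All levels below are log2 intensities relative to the 75th percentile of the array, so that a difference of 1 is a 2-fold change. Levels were compared between arrays for the same probe and never between probes. A difference was called when it reached at least 1 in size with an adjusted p under 0.05 in limma's fit to all 36920 tested probes. The 75th percentile itself ran from 294 to 996 intensity units, and 53.0% to 68.1% of the spots of an array were well above background. A 5′ minus 3′ index, the mean difference between the most 5′ and the most 3′ probe of 1909 transcripts, ran from −0.66 to 0.63 and overlapped between all groups, and the summed level of 8 liver markers ran from 5.41 to 5243 times the 75th percentile, with wide ranges inside each group.

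Mmp3, a stromelysin that cleaves proteoglycans and noncollagenous matrix proteins and activates other metalloproteinases, was higher after both long fibers. Its probe, at chr9:7455751-7455810 on the plus strand of NCBI37, was well above background on all 20 arrays. In the control group its level was −0.12, 1.77, −0.85, and −0.93, so that control replicate 2 lay well above the other controls. In SFA it was 1.15, −0.60, 1.005, and 0.18, and in NTS −0.06, −0.22, 0.23, and 0.32, both within the range of the control group. In LFA it was 1.45, 2.94, 1.75, and 3.10, and in NTL 2.91, 3.76, 2.84, and 2.45. All NTL arrays exceeded all control and NTS arrays, and all LFA arrays exceeded all SFA arrays, whereas LFA replicates 1 and 3 lay below control replicate 2.

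Mmp3 was 5.08-fold higher in LFA than in control (log2 difference 2.34 ± 0.54, SE, adjusted p = 0.0237) and 8.14-fold higher in NTL (3.03 ± 0.54, adjusted p = 0.00249). The 95% confidence interval ran from 1.20 to 3.49 for LFA and from 1.88 to 4.17 for NTL. It was 7.58-fold higher in NTL than in NTS (adjusted p = 0.00253). The difference between LFA and SFA was 1.88 (95% confidence interval 0.73 to 3.02), which did not pass the adjustment (adjusted p = 0.131). Against control, the difference was 0.47 in SFA and 0.10 in NTS, and neither passed the test. In bulk tissue, a change in the number of cells of a type and a change in RNA per cell cannot be told apart. This holds for Mmp3 and for all genes that follow.

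The LFA call for Mmp3 was close to the threshold. It was lost when any of LFA replicates 2 and 4 and control replicates 1, 3, and 4 was left out (difference 2.04 to 2.32, adjusted p = 0.0577 to 0.0784). Without control replicate 2 the differences from control rose to 2.94 in LFA and 3.63 in NTL, and the difference between LFA and SFA, unchanged at 1.88, then passed the test (adjusted p = 0.037). The NTL calls held without any single array, with adjusted p at most 0.0121 against control and 0.0126 against NTS. Within the slides, on which up to 8 arrays were hybridized together, Mmp3 was 3.36, 0.62, and 3.79 higher in LFA than in control and 2.09 and 3.87 higher in NTL. Such within-slide differences, here and below, rest on 1 or 2 LFA or 1 to 3 NTL arrays and 1 or 2 control arrays. All NTS arrays were on slides 1 and 2, scanned on day 1, whereas 3 of 4 NTL arrays were on slide 3, scanned on day 2. Nanotube length is therefore partly confounded with slide and scan day. The same holds for NTL against control, as slide 3 held 1 control array. LFA against SFA is partly confounded with slide, as slide 1 held 2 LFA arrays and no SFA array.

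**Figure D1:**
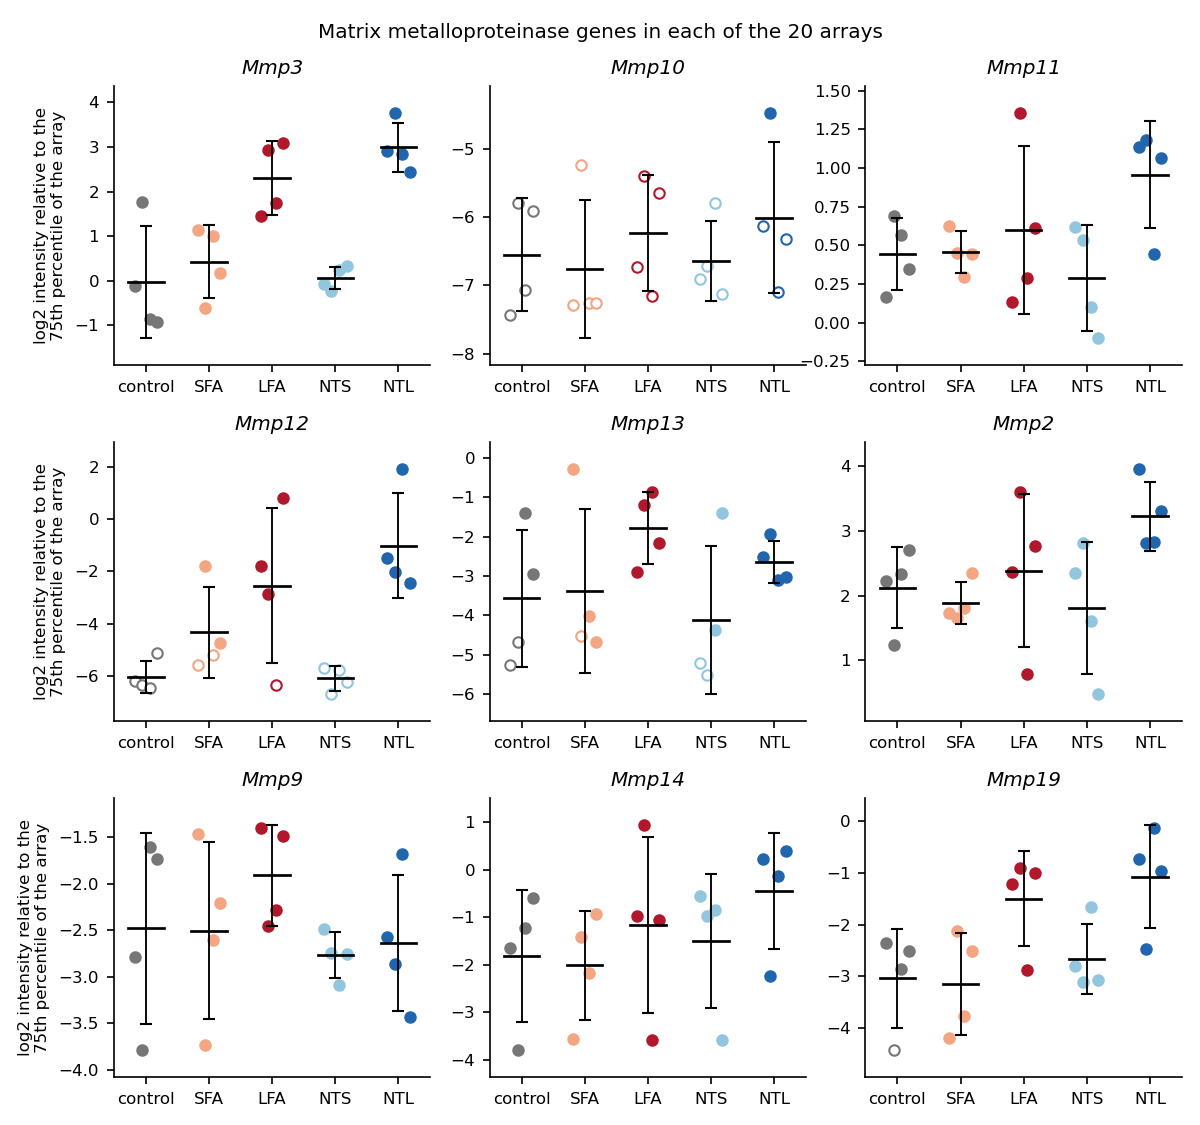
Level of each of the 9 genes on each of the 20 arrays, as log2 intensity relative to the 75th percentile of the array, in control mice and after short (SFA) and long (LFA) asbestos fibers and short (NTS) and long (NTL) nanotubes. Filled points are arrays on which the probe was well above background, open points are arrays on which it was not, and the bars are the mean and SD of 4 arrays, so that for Mmp3 the 4 NTL points (2.45 to 3.76) lie above all control points, while Mmp10 is open on 19 arrays.

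Mmp12, the macrophage metalloelastase, was measured after the long fibers and was not well above background on any control or NTS array. Its brighter probe, at chr9:7352935-7352994, was well above background on 4 NTL, 3 LFA, and 2 SFA arrays. The measured level was −6.20, −6.33, −6.46, and −5.13 in control and −5.67, −6.70, −5.76, and −6.23 in NTS. In NTL it was −1.47, −2.03, 1.91, and −2.45, and in LFA −1.80, −2.87, −6.33, and 0.82, where LFA replicate 3, at −6.33, was at the level of the controls. In SFA it was −5.59, −1.79, −5.21, and −4.74, with replicate 2 in the range of the long-fiber arrays.

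Because the control and NTS arrays gave only an upper limit, the folds of Mmp12 in NTL over these groups are lower bounds. The level was at least 16.2-fold higher in NTL than in control (adjusted p = 0.0145 from the measured means of −1.01 and −6.03) and at least 15.8-fold higher than in NTS (adjusted p = 0.0115). In LFA, on 3 of 4 measured arrays, the same calculation gave 5.58-fold over control. It took replicate 3 at −6.33 although that array was not above background, so this fold is not a strict bound. The difference between LFA and control did not pass the test (adjusted p = 0.091). Without LFA replicate 3 it did, with a fitted difference of 4.74 (adjusted p = 0.0177). Without LFA replicate 4, the brightest of the group, the fitted difference was 2.36 (adjusted p = 0.253) and the calculated fold 2.56. Without NTL replicate 3, the brightest array, the fitted NTL difference fell from 5.02 to 4.05 against control and from 5.08 to 4.11 against NTS, and both still passed (adjusted p = 0.0477 and 0.0396). The lower bounds were then 8.26-fold over control and 8.04-fold over NTS. In SFA the calculated fold over control was 1.62, with 2 of 4 arrays measured, and is not a strict bound either. The fitted difference of 1.70 did not pass the test (adjusted p = 0.999). That fold rested on SFA replicate 2, without which the fitted difference was 0.85 (adjusted p = 0.973) and no fold could be given.

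The NTL calls of Mmp12 also depended on the processing. With array brightness as a covariate, chosen after seeing the data, both were lost (adjusted p = 0.0619 against control and 0.0697 against NTS). With normexp background correction the difference from control was 2.11 (adjusted p = 0.0658), and from NTS 1.97 (adjusted p = 0.0538). Fitted within slides, the difference between NTL and NTS was 5.48 but did not pass the test (adjusted p = 0.0691). The NTL arrays exceeded their slide's controls by 4.79 and 5.60, and the LFA arrays by 2.37 to 4.46. The second Mmp12 probe, at chr9:7360373-7360432, starts at base 3518 of the transcript, against base 735 for the brighter probe. It was well above background on only 2 of 20 arrays, LFA replicate 4 and NTL replicate 3, which were also the brightest arrays for the first probe.

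Mmp13, an interstitial collagenase, varied widely in control, SFA, and NTS (SD 1.75, 2.08, and 1.88) and less in LFA (0.92) and NTL (0.54), and no difference passed the test. Its probe, at chr9:7282762-7282821, was well above background on 15 of 20 arrays, among them all 8 long-fiber arrays but only 2 of 4 control and 2 of 4 NTS arrays. Its level was −5.26, −4.68, −1.40, and −2.94 in control, −2.90, −1.20, −0.87, and −2.15 in LFA, and −2.52, −1.93, −3.10, and −3.02 in NTL. In SFA it was −0.29, −4.53, −4.02, and −4.69, and in NTS −5.22, −5.51, −4.38, and −1.40. Single control, SFA, and NTS arrays therefore reached the level of the long-fiber arrays. The difference from control was 1.79 ± 1.01 in LFA (adjusted p = 0.288) and 0.93 ± 1.01 in NTL (adjusted p = 0.633), and within slides the NTL difference was 2.45 on one slide and −1.28 on the other.

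Mmp10, a second stromelysin, was measured at chr9:7510011-7510070 and was well above background on 1 of 20 arrays, NTL replicate 2, where its level was −4.48. On the other arrays the measured level lay between −7.44 and −5.24 and all groups overlapped. It was not tested, and no fold could be given.

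Mmp3, Mmp10, Mmp12, and Mmp13 are neighbors in the metalloproteinase cluster on chromosome 9. Their promoters are shown because these neighbors share a tissue and a chromosome region but were not equally detected. The RefSeq promoter table (GRCm38.p6) held 6 of the 9 genes, with 2 annotated starts for Mmp12, and did not list Mmp2, Mmp9, and Mmp19. Each sequence is the 250 bases before an annotated start, 5′ to 3′ on the plus strand, and capitals mark the letters TGANTCA (the AP-1 motif, in which N is any base), TATAAA, and AGGAAG (an ETS-type motif), searched on both strands.
Mmp3, chr9:7445572-7445821: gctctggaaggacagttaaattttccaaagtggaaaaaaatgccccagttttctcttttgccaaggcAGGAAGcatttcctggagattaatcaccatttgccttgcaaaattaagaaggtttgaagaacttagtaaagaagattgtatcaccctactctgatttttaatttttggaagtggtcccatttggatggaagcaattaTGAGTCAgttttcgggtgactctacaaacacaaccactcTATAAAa
Mmp12, first start, chr9:7344147-7344396: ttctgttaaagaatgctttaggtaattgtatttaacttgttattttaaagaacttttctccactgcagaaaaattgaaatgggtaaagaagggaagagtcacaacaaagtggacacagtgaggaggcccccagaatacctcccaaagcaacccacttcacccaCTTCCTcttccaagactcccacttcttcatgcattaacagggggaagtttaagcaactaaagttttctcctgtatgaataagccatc
Mmp12, second start, chr9:7347124-7347373: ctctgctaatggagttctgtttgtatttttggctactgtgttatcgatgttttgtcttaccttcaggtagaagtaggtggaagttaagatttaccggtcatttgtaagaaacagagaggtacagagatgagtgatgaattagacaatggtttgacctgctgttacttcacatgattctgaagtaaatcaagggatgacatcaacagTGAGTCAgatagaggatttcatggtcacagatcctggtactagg
Mmp13, chr9:7272264-7272513: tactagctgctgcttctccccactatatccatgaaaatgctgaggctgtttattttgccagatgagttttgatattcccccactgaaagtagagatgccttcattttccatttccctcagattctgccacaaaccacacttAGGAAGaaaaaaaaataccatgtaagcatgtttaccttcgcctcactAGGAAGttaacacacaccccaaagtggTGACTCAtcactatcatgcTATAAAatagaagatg
Mmp10, chr9:7502092-7502341: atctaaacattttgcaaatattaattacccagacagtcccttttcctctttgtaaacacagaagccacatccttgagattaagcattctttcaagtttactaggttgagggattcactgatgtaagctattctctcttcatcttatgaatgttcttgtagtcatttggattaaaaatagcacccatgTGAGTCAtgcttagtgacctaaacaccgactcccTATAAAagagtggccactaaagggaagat
The letters TGANTCA stood before the start of Mmp3, Mmp10, Mmp13, and the second start of Mmp12, at 46, 63, 35, and 44 bases before the start. They were absent from the windows of the first Mmp12 start, Mmp11, and Mmp14, and 6.75% of all 32851 promoters of that length held them. TATAAA stood in the windows of Mmp3, Mmp10, and Mmp13, and in 12.4% of all promoters. AGGAAG, on either strand, stood in those of Mmp3, Mmp13, Mmp14, and the first Mmp12 start, and in 29.5% of all promoters. The gene that was hardly detected, Mmp10, thus held the same AP-1 letters as Mmp3. A match of letters is a description of the window and does not show that a factor bound there.

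Of the 10 genes of the cluster, 6 could be tested. Besides Mmp3 and Mmp12, Mmp27 was called, against a control group in which only 1 of 4 arrays was well above background, with fitted differences of 1.42 ± 0.35 in LFA (adjusted p = 0.0321) and 1.54 ± 0.35 in NTL (adjusted p = 0.0125). Mmp27 was well above background on 4 of 4 arrays in LFA and NTL, 3 in NTS, and 0 in SFA. It was at least 2.61-fold higher in LFA than in SFA (adjusted p = 0.0016). Its difference from control in NTS, 1.09, was not called (adjusted p = 1), nor was that between NTL and NTS, 0.45 (adjusted p = 0.444). Mmp8, the neutrophil collagenase, differed from control by 1.22 in LFA and 0.23 in NTL and was not called. Mmp1b was above background only on 2 SFA and 2 NTS arrays and was not called in either group. Mmp1a, Mmp7, and Mmp20 were well above background on 0, 2, and 0 arrays.

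**Figure D2:**
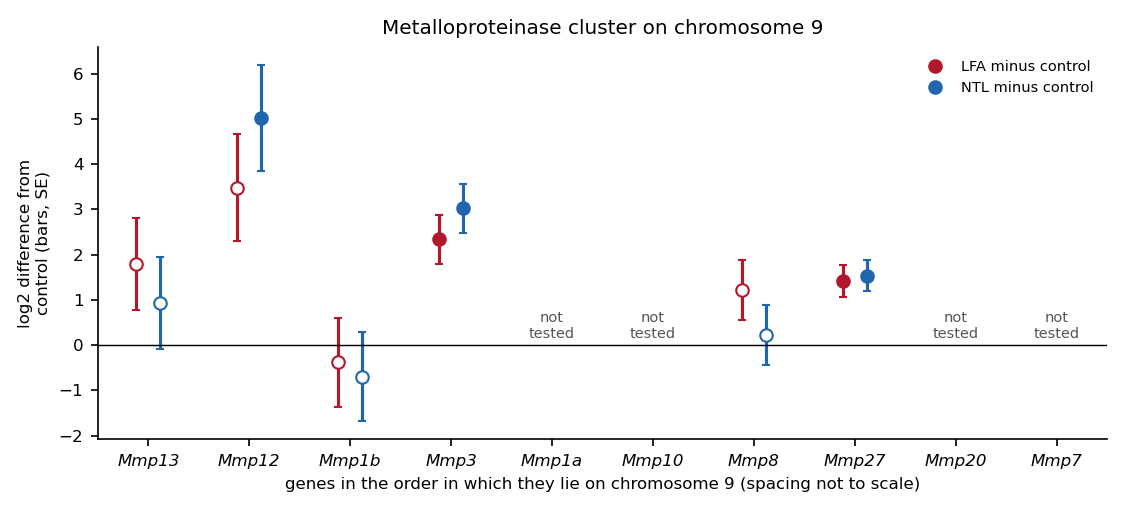
Log2 difference from control, with its SE, of the 10 genes of the metalloproteinase cluster in the order in which they lie on chromosome 9, for LFA (red) and NTL (blue). Filled points passed the test and open points did not, and the called genes, Mmp12 (5.02 in NTL), Mmp3 (2.34 and 3.03), and Mmp27 (1.42 and 1.54), are not all next to each other. The Mmp12 values are fitted differences from control arrays that were not above background, and those of Mmp27 are from a control group with 1 of 4 arrays above background.

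Mmp19, a secreted enzyme that cleaves basement membrane proteins, had higher means after both long fibers, and neither difference passed the test. Its probe, at chr10:128236221-128236280, was well above background on 19 of 20 arrays, all but control replicate 2. Its level was −2.36, −4.43, −2.86, and −2.51 in control, −1.21, −0.89, −2.87, and −1.001 in LFA, and −0.73, −2.47, −0.12, and −0.96 in NTL. In SFA it ran from −4.20 to −2.13 and in NTS from −3.11 to −1.66. LFA replicate 3 and NTL replicate 2 fell within the control range, and the other 6 long-fiber arrays lay above all controls. The difference from control was 1.55 ± 0.61 in LFA (adjusted p = 0.139) and 1.97 ± 0.61 in NTL (adjusted p = 0.0544). The NTL difference passed in 7 of 31 fits, counting the one above. It did so when NTL replicate 2 (2.44, adjusted p = 0.0297), LFA replicate 3 (adjusted p = 0.0409), or SFA replicate 2 (adjusted p = 0.0495) was left out, with quantile normalization (2.10, adjusted p = 0.0233), with normexp (1.17, adjusted p = 0.0461), with the mean of the probes of each gene (adjusted p = 0.0455), and with the 5′ minus 3′ index as a covariate, given below. It was 1.51 (adjusted p = 0.164) without control replicate 2 and 1.38 (adjusted p = 0.258) with array brightness as a covariate. Against NTS it was 1.59 (adjusted p = 0.111), and it passed with normexp (1.05, adjusted p = 0.0443).

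Mmp14, the membrane-type enzyme that activates the Mmp2 precursor at the cell surface, had 1 low array in each group. Its probe lies at chr14:55058775-55058834 and was well above background on all 20 arrays. Its level was −1.66, −3.81, −1.23, and −0.59 in control, −3.56, −1.41, −2.17, and −0.93 in SFA, and −0.98, 0.94, −3.59, and −1.07 in LFA. It was −0.56, −0.98, −0.85, and −3.60 in NTS and 0.22, −2.24, −0.13, and 0.39 in NTL. The low array lay between −3.81 and −3.56 in control, SFA, LFA, and NTS and at −2.24 in NTL, and the 5 groups overlapped. The difference from control was 1.38 ± 0.93 in NTL (adjusted p = 0.4) and 0.65 ± 0.93 in LFA (adjusted p = 0.691).

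Mmp2, the gelatinase made mainly by fibroblasts and other mesenchymal cells, was measured at chr8:95376840-95376899, well above background on all 20 arrays. Its level was 2.22, 1.23, 2.34, and 2.70 in control and 3.96, 2.82, 2.83, and 3.30 in NTL, and all NTL arrays lay above all control arrays. In LFA it was 2.37, 3.61, 0.79, and 2.77, which overlapped with the controls. In SFA it ran from 1.65 to 2.36 and in NTS from 0.47 to 2.82. The NTL difference was 1.10 ± 0.54 from control (adjusted p = 0.225) and 1.42 ± 0.54 from NTS (adjusted p = 0.108), and neither passed. Every NTL array lay above every NTS array, but the lowest NTL value (2.8196) and the highest NTS value (2.8158) were nearly equal. With normexp the difference from NTS did pass (1.49, adjusted p = 0.0423).

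The arrays with low Mmp14, Mmp19, and Mmp2 were mostly those with a low 5′ minus 3′ index. The index was −0.45 on control replicate 2, −0.66 on SFA replicate 1, −0.59 on LFA replicate 3, −0.46 on NTS replicate 4, and −0.58 on NTL replicate 2, the lowest array of each group, and Mmp14 was lowest on the same 5 arrays. Relations were computed on deviations from the group mean over the 20 arrays, 84 in all, with permutation within groups. For Mmp14 and the index Pearson's r was 0.92 (permutation p = 2e-05, adjusted p = 0.00168) and Spearman's rho 0.87 (permutation p = 3e-05, adjusted p = 0.00168). Without the 2 arrays whose deviation of the index lay farthest from the median deviation, r was 0.88. It was 0.95 and 0.89 within slides 2 and 3, the slides with 8 and 7 arrays. The Mmp14 level thus fell with the index inside the groups.

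For Mmp19 and the index r was 0.75 (permutation p = 0.00092, adjusted p = 0.0129) and rho 0.66 (permutation p = 0.00721, adjusted p = 0.0757), with r = 0.75 without the 2 farthest arrays and 0.80 and 0.77 within slides 2 and 3. For Mmp2 r was 0.75 (permutation p = 0.00032, adjusted p = 0.00672) and rho 0.68 (permutation p = 0.00345, adjusted p = 0.0526), with r = 0.63 without the 2 farthest arrays and 0.76 and 0.70 within the slides. For both genes only Pearson's r passed the adjustment. Mmp3 ran the other way, with r = −0.55 (permutation p = 0.0204, adjusted p = 0.141) and rho = −0.45 (permutation p = 0.0674, adjusted p = 0.427), and did not pass. Mmp2 and Mmp14 also varied together, with r = 0.85 (permutation p = 0.00017, adjusted p = 0.00672), rho = 0.76 (permutation p = 0.00096, adjusted p = 0.0269), r = 0.74 without the 2 farthest arrays, and r = 0.74 and 0.84 within the slides. So did Mmp14 and Mmp19, with r = 0.80 (permutation p = 0.00048, adjusted p = 0.00806) and rho = 0.61 (permutation p = 0.0118, adjusted p = 0.111). Their r was 0.71 without the 2 farthest arrays and 0.78 and 0.82 within the slides, and only Pearson's r passed the adjustment. The part of the index in these relations between genes was not tested. The part of the index in the differences between the groups was not tested beyond the fit that follows.

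A fit with the index as a covariate was chosen after seeing the data. In it Mmp14 was called higher than control in LFA (1.75, adjusted p = 0.0182) and NTL (1.996, adjusted p = 0.00396), Mmp19 in LFA (2.13, adjusted p = 0.01) and NTL (2.30, adjusted p = 0.00226), and Mmp2 in NTL (1.39, adjusted p = 0.0189). All 3 were also called higher in NTL than in NTS, by 2.10, 2.15, and 1.90, and Mmp19 was called higher in LFA than in SFA (1.71, adjusted p = 0.041). Mmp3 kept its calls in LFA (1.97, adjusted p = 0.021) and NTL (2.82, adjusted p = 0.00124), and so did Mmp12 in NTL (5.20, adjusted p = 0.00806). More probes of the whole array were called in that fit as well, 7.37% in place of 3.94% for LFA and 11.3% in place of 6.81% for NTL. For NTL against NTS it was 12.8% in place of 7.6%, and for LFA against SFA 1.94% in place of 1.16%.

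**Figure D3:**
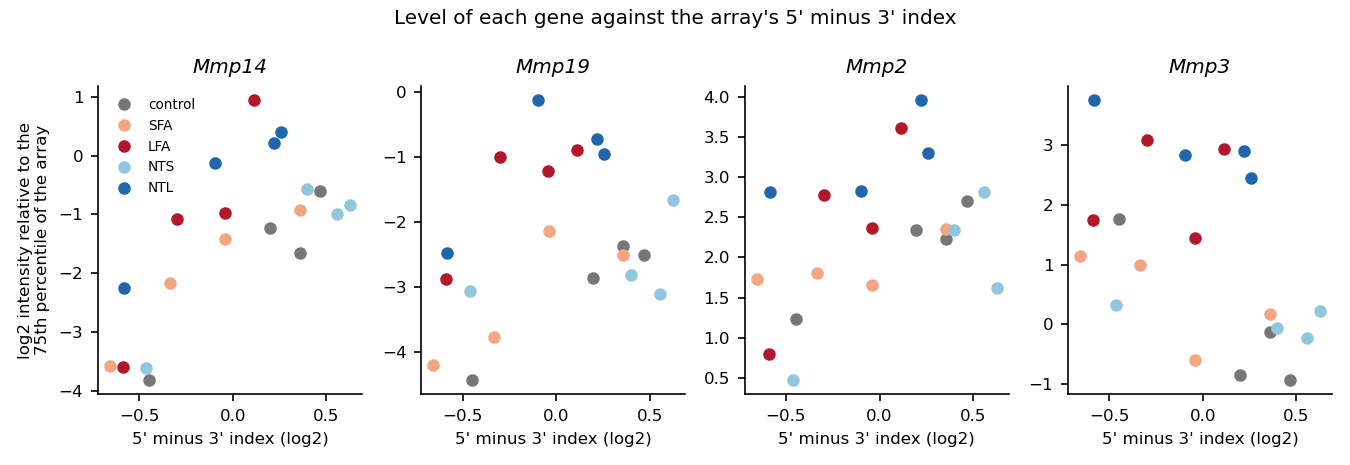
Level of Mmp14, Mmp19, Mmp2, and Mmp3 (log2 intensity relative to the 75th percentile of the array) against the 5′ minus 3′ index of the same array (log2), with 1 point for each of the 20 arrays, colored by group. The 5 arrays with an index under −0.4 hold the lowest Mmp14 values, from −3.81 to −2.24.

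Mmp11, a stromelysin-like enzyme that is activated inside the cell by furin, gave no difference that passed the test. Its probe lies at chr10:75386024-75386083 on the minus strand. Its level ran from 0.17 to 0.69 in control, 0.14 to 1.35 in LFA, and 0.44 to 1.18 in NTL, where replicate 3 lay apart from the other 3 arrays. The difference from control was 0.16 ± 0.27 in LFA (adjusted p = 0.745) and 0.51 ± 0.27 in NTL (adjusted p = 0.262). A second probe gave 0.07 and 0.49 and was not called either. The deviations of Mmp11 followed the mean level of 10 fibroblast markers with r = 0.83 (permutation p = 0.00026, adjusted p = 0.00672) and rho = 0.83 (permutation p = 4e-05, adjusted p = 0.00168), with r = 0.73 without the 2 farthest arrays and 0.87 and 0.88 within slides 2 and 3. They ran against the mean of the liver markers, with r = −0.73 (permutation p = 0.00201, adjusted p = 0.0241), rho = −0.73 (permutation p = 0.00365, adjusted p = 0.0526), r = −0.76 without the 2 farthest arrays, and r = −0.84 and −0.64 within the slides. With the liver markers only Pearson's r passed the adjustment.

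Mmp9, the gelatinase stored in neutrophil granules and also made by macrophages, did not separate the groups. Its probe, at chr2:164780620-164780679, was spotted 10 times on each array, with a median SD between spots of 0.10, whereas the SD between the 4 control arrays was 1.02. Its level was −2.79, −3.79, −1.60, and −1.73 in control and −1.40, −2.46, −2.28, and −1.48 in LFA. In NTL it ran from −3.43 to −1.67, in SFA from −3.74 to −1.46, and in NTS from −3.09 to −2.49. The difference from control was 0.57 ± 0.51 in LFA and −0.15 ± 0.51 in NTL (adjusted p = 0.508 and 0.895), and the 95% confidence interval for NTL, −1.22 to 0.91, left room for a change of 2-fold only in the downward direction. Against the mean of 10 neutrophil markers, of which 1 was called higher in LFA and none in NTL, Mmp9 had r = 0.56 (permutation p = 0.0571, adjusted p = 0.279) and rho = 0.49 (permutation p = 0.0814, adjusted p = 0.427), with r = 0.38 without the 2 farthest arrays and 0.84 and 0.20 within slides 2 and 3. Mmp13 had r = 0.68 (permutation p = 0.00708, adjusted p = 0.0595) and rho = 0.53 (permutation p = 0.0507, adjusted p = 0.355), with r = 0.47 without the 2 farthest arrays and 0.75 and 0.73 within the slides. Neither passed the adjustment.

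In LFA against control, 1 of the 8 tested genes was called (Mmp3), where 3.94% of all tested probes were called and 2.22% were called higher. In NTL against control 2 were called (Mmp3 and Mmp12), where 6.81% of all probes were called and 3.63% higher. None was called in SFA or NTS, where limma called 0% of all probes and 843 and 1288 probes had an unadjusted p under 0.05, and none of the 8 genes was among those. In NTL against NTS 2 were called higher, Mmp3 and Mmp12, where 7.6% of all probes were called and 4.89% higher. In LFA against SFA none was called by limma, with 2 of 8 genes and 12.5% of all probes under an unadjusted p of 0.05, where 1.16% of all probes were called and 1.03% higher. With no adjustment 3 of 8 had p under 0.05 in LFA (23.9% of all probes), 3 in NTL (23.5%), and 5 in NTL against NTS (25.1%). In limma's test over all 4 fiber groups, Mmp3 (adjusted p = 0.00221) and Mmp12 (adjusted p = 0.0276) passed, along with 5.89% of all probes. By the methods' test over the 5 groups Mmp12 did not pass (adjusted p = 0.136) and Mmp3 did (adjusted p = 0.0322).

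The median log2 difference of the 8 genes was 1.10 in LFA and 1.24 in NTL, against −0.24 for all 25504 named genes in both comparisons. In SFA and NTS it was −0.01 and −0.11, against −0.08 and −0.07. These comparisons share the control arrays. The 8 genes include Mmp12, which was well above background on 9 arrays, none of them control or NTS, and so was tested through the other fiber groups. The 9 members were chosen with earlier results of these data known, so these medians and counts are a description and not an independent test. In LFA all 8 genes were higher than control and in NTL 7 of 8, the exception being Mmp9. Among genes whose 4 arrays all lay above the 4 control arrays, LFA had none (4.6% of all probes) and NTL had Mmp2, Mmp3, and Mmp12 (6.34% of all probes). Against NTS the same 3 genes separated from NTL, Mmp2 only narrowly (7.61% of all probes), and against SFA Mmp3 alone of the 8 separated from LFA (3.15% of all probes). In SFA and NTS no gene lay above control on all arrays (0.561% and 0.624% of all probes), and in SFA against NTS Mmp12 did (1.24% of all probes), where no NTS array and only 2 of 4 SFA arrays were above background, so that the order of the others is not measured. No gene separated LFA above NTL (0.405% of all probes).

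**Figure D4:**
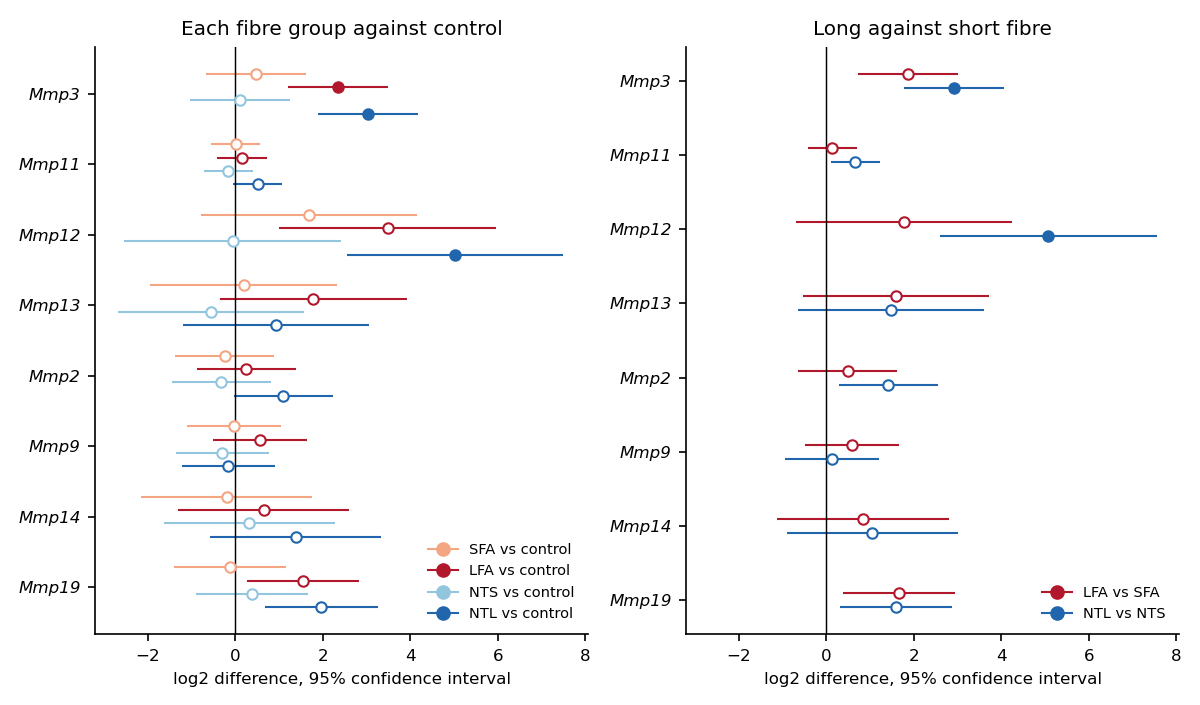
Log2 differences of the 8 tested genes with their 95% confidence intervals, on the left for each fiber group against control and on the right for long against short fibers. Filled points passed the test and open points did not, and the filled points are Mmp3 in LFA (2.34) and NTL (3.03), Mmp12 in NTL (5.02), and Mmp3 (2.92) and Mmp12 (5.08) in NTL against NTS.

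The long fibers of the 2 materials were compared directly, at doses that differed. None of the 8 genes was called between LFA and NTL or between SFA and NTS, in comparisons in which limma called 0% of all probes and 572 and 2151 probes had an unadjusted p under 0.05, none of them from the 8 genes. The difference of LFA from NTL was −0.68 for Mmp3 (95% confidence interval −1.82 to 0.46) and −1.54 for Mmp12 (−4.01 to 0.93), intervals that include more than 2-fold differences. The length effect (long minus short) of asbestos minus that of nanotubes was −1.05 for Mmp3 (95% confidence interval −2.66 to 0.57). It did not pass the test, in which 0% of all probes were called by limma (adjusted p = 1, and 1273 probes with an unadjusted p under 0.05).

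The genes whose profile over the 20 arrays was most like that of Mmp3 were sought among 15230 named genes, by the root mean square difference of levels set relative to the control mean. They were Ms4a7 (0.41), Clec4a3 (0.41), and Sirpb1a (0.47), where the profile of Mmp3 itself had a root mean square of 1.86. Ms4a7 differed from control by 2.33 in LFA and 2.82 in NTL, close to the 2.34 and 3.03 of Mmp3. Ms4a7, Clec4a3, and Sirpb1a encode proteins known from myeloid cells.

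Macrophage markers moved with the long-fiber groups. Of 13 macrophage markers 12 could be tested, and 8 were called higher in LFA and 9 in NTL, and 0 in SFA and NTS. Their summed level was 78.6 to 133 times the 75th percentile in control, 92.5 to 150 in SFA, 81.9 to 143 in NTS, 171 to 298 in LFA, and 264 to 377 in NTL. None of the 12 was at background throughout, 11 were well above background on all 20 arrays, and Cd163 was so on 12. Of 10 fibroblast markers, 1 was called higher in LFA and 4 in NTL, with summed levels of 621 to 970 in control, 618 to 1251 in LFA, and 802 to 1417 in NTL. Of 12 muscle markers, 2 were called lower in LFA and 3 in NTL, and their summed level was 5014 to 7943 in control, 2812 to 3821 in LFA, and 2749 to 3352 in NTL. Inside the groups, the mean of the macrophage markers had r = 0.45 with Mmp3 (permutation p = 0.0726, adjusted p = 0.286) and rho = 0.48 (permutation p = 0.0813, adjusted p = 0.427), with r = 0.36 without the 2 farthest arrays and 0.70 and 0.12 within slides 2 and 3. With Mmp12 it had r = 0.57 (permutation p = 0.12, adjusted p = 0.387) and rho = 0.32 (permutation p = 0.287, adjusted p = 0.596), with r = 0.10 without the 2 farthest arrays and −0.57 and 0.66 within the slides. Neither relation passed. The mean of the fibroblast markers had r = 0.57 with Mmp3 (permutation p = 0.0123, adjusted p = 0.094) and rho = 0.56 (permutation p = 0.0315, adjusted p = 0.24). This r was 0.50 without the 2 farthest arrays and 0.60 and 0.62 within slides 2 and 3, and the relation did not pass either. With Mmp12 the fibroblast mean had r = −0.09 (permutation p = 0.835, adjusted p = 0.897). The part of these cell types in the changes of Mmp3 and Mmp12 was not tested.

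The remaining marker lists gave few calls, and none in SFA or NTS. Of 7 B and plasma cell markers, 2 were called higher in both LFA and NTL (Igj and Tnfrsf17, known from plasma cells), of 7 T cell markers 0 and 1, and of 6 osteoclast markers 1 and 2. Of 6 adipocyte markers, 1 was called lower in LFA and 4 in NTL. None of the 8 mesothelium, 8 liver, or 2 tested lung markers was called by limma in LFA or NTL. The fibroblast list shares Col1a1, Col1a2, and Col3a1 with the list of matrix substrates below.

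The inhibitors split by member. Of 6 tested inhibitor genes, 1 was called higher and 1 lower in both LFA and NTL, and none in SFA or NTS. Timp1, the inducible inhibitor, lay at −0.13 to 1.32 in control, 3.10 to 5.63 in LFA, and 3.52 to 5.97 in NTL, with no overlap between control and long fibers, a rise of 3.74 in LFA (adjusted p = 0.00114) and 4.60 in NTL (adjusted p = 0.000103). Timp4, the inhibitor known mainly from heart and muscle, fell by 2.33 in LFA (adjusted p = 0.0096) and by 2.92 in NTL (adjusted p = 0.000937). Timp4 also lay lower in SFA (1.07 to 1.62) and NTS (−0.23 to 2.0036) than in control (2.0096 to 3.08), without being called. The highest NTS value and the lowest control value were nearly equal. Timp2, Timp3, and Reck differed from control by −0.19 to 0.65 and were not called, nor was Pzp, a protease-trapping plasma protein made in the liver (2.68 and 2.89).

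Among the genes of proteases that activate metalloproteinases, of their receptor, and of their inhibitors, 2 of 10 were called higher in both LFA and NTL. Plaur, the receptor that holds urokinase at the cell surface, rose by 1.43 and 1.39 (adjusted p = 0.00558 and 0.0032), and Serpinb2, an inhibitor of urokinase, rose by 3.03 and 3.08 (adjusted p = 0.00101 and 0.000375). Serpinb2 also lay higher in SFA (−2.69 to −2.01) than in control (−4.44 to −2.87), without being called. The protease genes themselves, Plau, Plat, Plg, Furin, and Klkb1, were not called, with differences of −1.85 to 2.84. Of 10 binding partners, 3 were called higher in LFA and 4 in NTL. Spp1, osteopontin, rose by 2.95 and 3.27, Thbs1 by 2.54 and 2.59, and Cd44, a hyaluronan receptor that anchors Mmp9 on cells, by 1.73 and 1.81, and Thbs2 rose by 1.65 in NTL.

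Related proteases and the matrix moved in part. Of 15 ADAM and ADAMTS genes, 3 were called higher in each long-fiber group: Adam8, a leukocyte protease, by 2.11 and 2.50, and the proteoglycan-cleaving Adamts4 and Adamts15 by 1.89 and 2.14 and by 2.25 and 2.43. Adamts4 also lay higher in SFA (−0.18 to 0.18) than in control (−1.67 to −0.57), as did Adamts15 (−0.40 to 0.76 against −0.79 to −0.57), without being called. Of 16 matrix substrates, 3 were called higher in LFA (Fn1, Vcan, and Col3a1) and 7 in NTL, where Fn1 rose by 2.38, Vcan by 2.12, Col1a1 by 1.67, and Col3a1 by 1.64. Of 14 tested transcription factor genes of the AP-1, ETS, RUNX, and NF-kappaB families, none was called in LFA by limma, and 1, Runx1, was called in NTL (1.42, adjusted p = 0.0195). Fos, Jun, Junb, and Fosl1 differed from control by −0.52 to 0.99 in the long-fiber groups and were not called. Of the 8 tested Mmp genes outside the 9 described here, Mmp27 alone was called against control, in both long-fiber groups. Mmp25, a membrane-anchored enzyme known from leukocytes, was called in NTL against NTS (adjusted p = 0.0461, at least 1.48-fold higher), with no NTS array above background. Mmp25 was above background on 3 LFA and 4 NTL arrays and on no control or SFA array, and so was tested only through the long-fiber groups. Its call is therefore a description and not an independent test. The differences of Mmp25 from control were not called (adjusted p = 0.0603 and 0.0735).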

How the data were processed

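Cy3-labeled RNA from the diaphragms of 20 mice, separate animals per the labels, was hybridized to Agilent mouse arrays, 1 per mouse. The authors deposited the output of Agilent Feature Extraction (version 10.7.3.1, from the submitters' processing notes), in which the intensity of a spot is the processed signal after background subtraction. The log2 values that the authors also deposited were normalized in GeneSpring, are group means centered per probe, and served only as an alternative without a test.

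Outlier spots, 92 to 204 per array, were left out, 0 spots were saturated, and averaging repeated spots reduced 59305 noncontrol spots to 55681 probes. From each log2 intensity the array's own 75th percentile was subtracted. Probes well above background on at least 4 of 20 arrays were tested (36920). Correlations between arrays ran from 0.865 to 0.986. Group means over all 20 arrays were estimated together in limma 3.58.1 (R 4.3.3, package data.table, version 1.17.8) with Benjamini-Hochberg adjustment over all tested probes. Each gene is represented by its brightest probe. For a group with no array well above background, the fold was computed against a limit. On each array this limit was the higher of the probe's own signal and the lowest signal among probes well above background. The fold is a lower bound only where every array of the brighter group was well above background. The number of arrays, 4 per group, limits the precision.  Tables, sequences, and figures were made in Python 3.11.15 with numpy 2.4.6, pandas 2.3.3, and matplotlib 3.10.9. Relations between deviations from group means were tested with 100000 permutations within groups, two-sided.

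The rule for named genes took all 9 members, up to 4 called genes from each of 8 gene lists and, for a member called in both LFA and NTL, the 3 genes most like it. Other genes of the lists that are named were chosen after their values were seen. The lists were 14 other Mmp genes, the chromosome 9 cluster, inhibitors, activating proteases, binding partners, ADAM and ADAMTS proteases, matrix substrates, and transcription factors, along with 11 lists of cell type markers. The members and lists were chosen with earlier results of these data known. Probe coordinates come from the array files (NCBI37), and the promoter and gene tables are RefSeq's (GRCm38.p6). The steps were tested on simulated data. Alternatives were quantile normalization, normexp background correction (offset 50), other filters on dim probes, the mean of a gene's probes, no minimum fold, a fit to the compared groups alone, blocks for slide, scan day, or replicate number, the methods' test with unequal variances, and each array left out in turn. Covariates for array brightness and for the 5′ minus 3′ index (probes at least 1000 bases apart) were chosen after seeing the data.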

Additional observations from a re-analysis of the deposited data

Results flagged for a closer look

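In 5 of 45 sets of 4 arrays (9 genes in 5 groups), a single array lay far from the other 3, where chance gives about 1 set in 20. Mmp10 was at −5.24 on SFA replicate 2, against −7.29 to −7.25 on the other SFA arrays, all below background. Mmp11 was at 0.44 on NTL replicate 3, against 1.07 to 1.18. Mmp13 was at −0.29 on SFA replicate 1, against −4.69 to −4.02. Mmp14 was at −3.60 on NTS replicate 4, against −0.98 to −0.56. Mmp19 was at −2.87 on LFA replicate 3, against −1.21 to −0.89. SFA replicate 1, NTS replicate 4, and LFA replicate 3 were also the arrays with the lowest 5′ minus 3′ index of their groups, at −0.66, −0.46, and −0.59, and the part of the index in these values was not tested for single arrays.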

How the results depend on the processing

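No difference of the 8 tested genes that was called turned its direction under any alternative run. The number of called genes in LFA against control was 1 and became 0 when only the groups compared were fitted (Mmp3, adjusted p = 0.0891), 3 with the 5′ minus 3′ index as a covariate, and 0 to 2 with an array left out. In LFA against SFA it was 0, and 1 with the index and 0 to 1 with an array left out. In NTL against control it was 2, and 1 with array brightness as a covariate or with probes above background on all 20 arrays (which leaves 5 of the genes), 5 with the index, and 2 to 3 with an array left out. In NTL against NTS it was 2, and 1 with brightness, with the filter on all 20 arrays, or with slide as a block, 5 with the index, and 2 with each array left out. In the test over all fiber groups it was 2, and 1 with brightness, normexp, the filter on all 20 arrays, the replicate block, scan day or slide as a block, or the methods' test, 5 with the index, and 1 to 3 with an array left out. The gene lost was Mmp12 each time (adjusted p = 0.234 with brightness, 0.126 with normexp, 0.0636 to 0.081 with the blocks, and 0.136 by the methods' test), which the filter leaves out. The other causes were not tested. Replicate numbers did not pair the arrays: the 40 same-numbered pairs had r from −0.676 to 0.689 (median −0.0912), 14 had r above 0.1, and 4 of 20 arrays correlated best with their own number. With the replicate number as a block, the count of called genes was 1 in LFA against control and 2 in NTL against control and NTS. Quantile normalization changed the median difference of all probes against control to −0.08 for LFA (from −0.28) and to −0.09 for NTL (from −0.25), with 75.9% in place of 56.4% of the calls higher in LFA and 72.3% in place of 53.3% in NTL, and with it 1, 3, and 2 of the genes were called in LFA, NTL, and NTL against NTS. The authors' deposited table holds group means, so it gave no count of calls, and its 72 differences lay within 0.0466 of those reported. Over all probes, LFA against control had 1455 calls, and 588 with only the groups compared, 899 with slide as a block, 915 with no filter, and 2722 with the index. NTL against control had 2514, and 1328 with slide and 1187 with scan day as a block, 1367 with brightness, and 4162 with the index. NTL against NTS had 2807, and 756, 886, and 4729 with slide, scan day, and the index, and 1783 with only the groups compared. LFA against SFA had 429, and 171 with only the groups compared, 281 with brightness, and 715 with the index. The signal over background limits Mmp10 and Mmp12, for which most arrays gave only an upper limit.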
